A study of Homo sapiens with 6 samples.

Results

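PC9 is an established human lung adenocarcinoma cell line whose growth depends on a mutated, constantly active EGFR, the receptor for epidermal growth factor. PC9-BrM4 and PC9-AMG carry the parental name and are treated here as 2 lines derived from it. PC9-BrM4 is known in the field as a line selected for growth in the brain of mice, but the labels expand none of BrM4, AMG or MGS. The question asked of the data was which genes differ from parental PC9 in both derivatives in the same direction. The 2 PC9 libraries were set against the 4 derivative libraries, 2 of PC9-BrM4 and 2 of PC9-AMG, which together are all 6 libraries of the series. Every library came from cells of 1 of the 3 lines cultured in MGS, and the labels name no drug, dose or other treatment. Each derivative is a single line, and nothing in the labels tells if the 2 libraries of a line came from separate cultures. P-values therefore measure the spread between libraries only, which may be technical. The word mix in the library names is not explained, and the files do not tell if a library holds RNA of any other cells.

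A gene was counted as shared where all 4 derivative values lay on one side of both PC9 values and where the mean of both derivatives differed from PC9 at an adjusted p under 0.05. The adjusted p came from limma on log2(TPM + 1) with the Benjamini-Hochberg method over all 14567 genes that reached 1 TPM in at least 2 of the 6 libraries. TPM is a length-corrected share of a library's transcripts. By this rule 739 genes were higher in both derivatives, 5.07% of those tested, and 572 were lower, 3.93%. The 1311 shared genes are the subject of what follows, and "rose" and "fell" are used for them alone. The test is of the mean of both derivatives, so a shared gene need not differ from PC9 by a test of each derivative alone. Without the test, all 4 derivative values lay above both PC9 values for 2236 genes (15.3%) and below both for 1725 (11.8%). A further 167 genes passed the test without a one-sided pattern and are not counted. The log2 difference from PC9 had a median of 0.014 over all tested genes.

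The tables give no read counts, and the depth cannot be stated. Mean coverage of genes at 1 TPM was between 0.606 and 0.822 reads per base, which makes such low values imprecise. The number of genes at or above 1 TPM ran from 13791 to 14105 per library. The Pearson correlation of log2(TPM + 1) across genes was 0.986 to 0.99 between libraries of a line, 0.966 to 0.981 between a PC9 and a derivative library, and 0.967 to 0.972 between the derivatives. Genes are not independent replicates.

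Most shared differences were small. The smaller of a gene's 2 differences from PC9, one per derivative, was under 0.5 on the log2 scale for 798 of the 1311 genes (60.9%). It reached 1 for 43 higher and 39 lower genes. The actin-associated light chain gene MYL6 shows the inner edge of the rule. MYL6 was at 1573.1 and 1535.7 TPM in PC9, 1042.3 and 1201.2 TPM in PC9-BrM4 and 1386.0 and 1535.5 TPM in PC9-AMG, so its second PC9-AMG library lay just under PC9. SAT1, a polyamine-degrading enzyme gene, fell just outside, with 535.6 and 533.4 TPM in PC9 and 533.4 TPM in its highest derivative library.

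The 15 rises and 15 falls described first had the largest smaller differences among named genes whose mean TPM reached 5 either in PC9 or in the lower derivative. Shared genes below that level, such as CPVL, TNNT3 and BMP7, are not among them. NUPR1, a small stress-induced chromatin regulator on chromosome 16 (28537341 to 28539174 in hg38), was at 2.19 and 2.37 TPM in PC9, 29.3 and 35.5 TPM in PC9-BrM4, and 17.8 and 14.1 TPM in PC9-AMG. Its mean log2 difference from PC9 was 2.85 ± 0.15 (SE, adjusted p = 1.08e-05). FHL1, a LIM-domain gene of muscle and cytoskeleton on the X chromosome (136146702 to 136211359), was at 1.85 and 2.21 TPM in PC9, 34.5 and 27.4 TPM in PC9-BrM4, and 9.8 and 10.9 TPM in PC9-AMG (2.65 ± 0.15, adjusted p = 1.45e-05). The rule fixes that the derivatives lie apart from PC9, and PC9-BrM4 was the higher derivative in both genes. GGT6, of the gamma-glutamyltransferase family that acts on glutathione, lies on chromosome 17 (4556927 to 4560596). GGT6 rose from 1.91 and 2.61 TPM to 44.9 and 43.1 TPM in PC9-BrM4 and to 9.37 and 8.56 TPM in PC9-AMG (2.71 ± 0.14, adjusted p = 1.08e-05).

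SLC1A6, a glutamate transporter gene known from cerebellar neurons, lies on chromosome 19 (14950033 to 15010643). SLC1A6 was at 12.4 and 10.1 TPM in PC9, 92.8 and 90.7 TPM in PC9-BrM4 and 28.7 and 25.6 TPM in PC9-AMG (2.07 ± 0.11, adjusted p = 1.45e-05). SLC5A6, the sodium-dependent vitamin transporter of biotin and pantothenate on chromosome 2 (27199587 to 27212307), rose from 31.9 and 29.5 TPM to between 64.1 and 83.9 TPM in the derivatives (1.26 ± 0.10, adjusted p = 7e-05). EDN2, encoding the vasoactive peptide endothelin 2 on chromosome 1 (41478775 to 41484683), was at 4.62 and 5.31 TPM in PC9, 28.8 and 30.0 TPM in PC9-BrM4 and 17.7 and 15.7 TPM in PC9-AMG (1.96 ± 0.12, adjusted p = 2.87e-05). KISS1, whose peptides act on the receptor KISS1R and which was first described as a metastasis suppressor, lies on the same chromosome (204190341 to 204196491). KISS1 was at 5.63 and 9.65 TPM in PC9, 21.0 and 25.2 TPM in PC9-BrM4 and 36.7 and 37.1 TPM in PC9-AMG (1.84 ± 0.18, adjusted p = 0.000349). In KISS1 both PC9-AMG libraries lay above both PC9-BrM4 libraries.

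OLR1, a scavenger receptor for oxidised lipoprotein on chromosome 12 (10158300 to 10172191), moved by nearly one amount in both lines. OLR1 was at 8.73 and 9.26 TPM in PC9, 28.4 and 24.3 TPM in PC9-BrM4 and 26.3 and 24.7 TPM in PC9-AMG (1.43 ± 0.12, adjusted p = 0.000124). The other rises of these 15 were in C6orf223, C6orf99, CHAC1, FAM25A, MYH15, TNXB and FAM133A, with mean log2 differences between 1.45 and 2.06. FAM25A has near-identical copies and TNXB shares sequence with TNXA and has more than 1 row in the library tables, so both values rest on the assignment of reads that fit more than 1 gene. All 15 of these rises stayed counted whichever of the 6 libraries was left out.

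Among the 15 falls was CEACAM5, which encodes the carcinoembryonic antigen of epithelial surfaces and lies on chromosome 19 (41708585 to 41730421). CEACAM5 was at 42.0 and 37.6 TPM in PC9, 0.511 and 0.422 TPM in PC9-BrM4 and 5.59 and 5.83 TPM in PC9-AMG (mean log2 difference -3.70 ± 0.14 SE, adjusted p = 1.47e-06). CEACAM6, its neighbour (41755520 to 41772208), was at 552 and 512 TPM in PC9, 9.98 and 7.63 TPM in PC9-BrM4 and 189 and 209 TPM in PC9-AMG (-3.59 ± 0.11, adjusted p = 3.42e-07). Both genes therefore fell in PC9-AMG as well, where CEACAM6 kept the higher level of the 2 derivatives by a wide margin.

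PTN, the gene of the heparin-binding growth factor pleiotrophin on chromosome 7 (137227346 to 137343800), was at 8.23 and 9.85 TPM in PC9 and at 1.71 and 2.13 TPM in PC9-AMG, and was listed at 0 in both PC9-BrM4 libraries (adjusted p = 6.47e-05). AOC1, a diamine oxidase gene on the same chromosome (150852477 to 150861291), fell from 34.6 and 35.9 TPM to 1.93 and 1.58 TPM in PC9-BrM4 and 13.9 and 10.1 TPM in PC9-AMG (-2.61 ± 0.15, adjusted p = 2.28e-05). CES1, a carboxylesterase gene on chromosome 16 (55802852 to 55833163), fell from 86.5 and 90.1 TPM to 10.6 and 11 TPM and to 43.5 and 31.9 TPM (-2.07 ± 0.13, adjusted p = 2.48e-05). The arylacetamide deacetylase gene AADAC, of a related enzyme class, had a mean log2 difference of -1.70 ± 0.18 (adjusted p = 0.00058).

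BMF had like differences from PC9 in both derivatives (-1.18 in PC9-BrM4 and -1.2 in PC9-AMG), and LOX had -1.29 and -0.95. BMF, a pro-apoptotic BH3-only gene of the BCL2 family on chromosome 15 (40087891 to 40108884), was at 7.73 and 7.85 TPM in PC9, 3.62 and 2.26 TPM in PC9-BrM4 and 3.18 and 2.5 TPM in PC9-AMG (-1.19 ± 0.19, adjusted p = 0.00441). LOX, the collagen cross-linking lysyl oxidase on chromosome 5 (122063195 to 122078360), was at 12.7 and 12.8 TPM in PC9 and between 4.56 and 6.21 TPM in the 4 derivative libraries (-1.12 ± 0.13, adjusted p = 0.00107). EDIL3, a secreted integrin ligand on that chromosome (83940595 to 84384867), was the only one of the 15 largest falls called lower in PC9-AMG than in PC9-BrM4. EDIL3 was at 10.1 and 10.7 TPM in PC9, 5.35 and 4.22 TPM in PC9-BrM4 and 1.9 and 1.81 TPM in PC9-AMG (-1.49 ± 0.16, adjusted p = 0.000559). The remaining large falls were in the E3 ligase gene PELI2, the R-spondin receptor gene LGR6, the transcriptional repressor gene SNAI2, and COLCA2, PCOLCE and MAMDC2. Their mean log2 differences were between -2.12 and -1.08. All 15 of these falls were also counted whichever of the 6 libraries was left out.

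**Figure D1:**
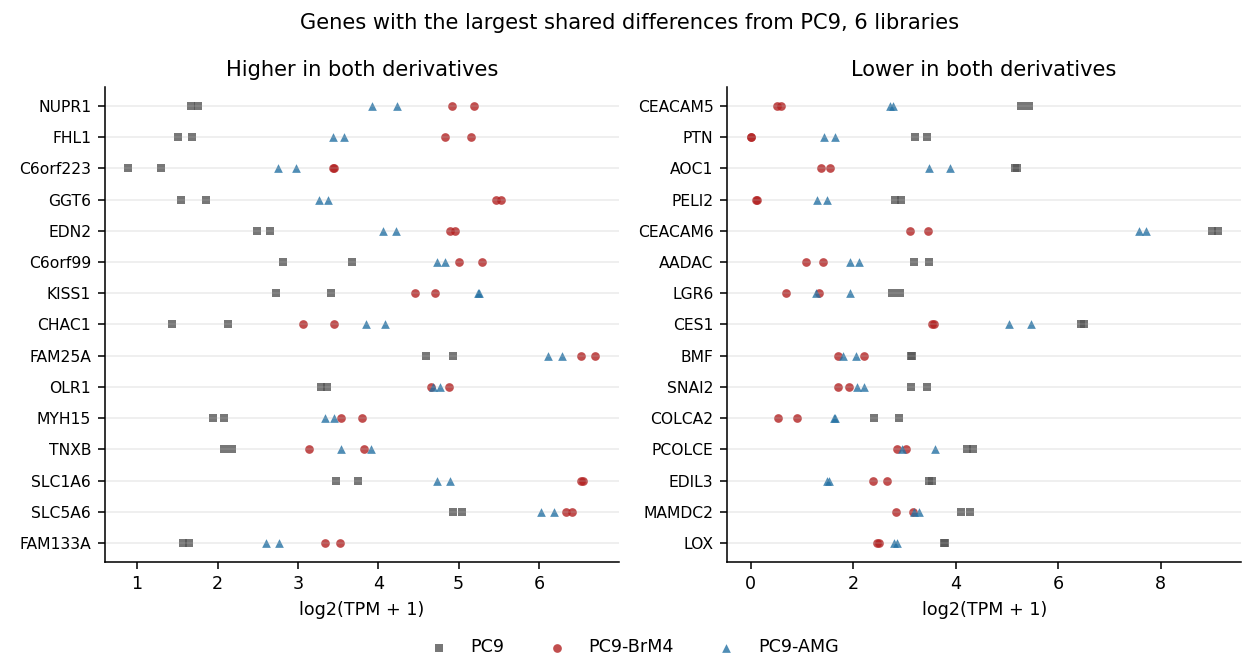
Expression, as log2(TPM + 1), of the 15 higher and 15 lower genes with the largest smaller difference from PC9 among genes of at least 5 TPM in PC9 or in the lower derivative; each symbol is 1 library (2 of each line) and no error bars are drawn. By the rule, the 4 derivative symbols of every row lie on one side of both PC9 squares. In CEACAM6 the PC9-AMG libraries (189 and 209 TPM) lie far closer to PC9 than the PC9-BrM4 libraries do.

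PC9-BrM4 was more often the derivative farther from PC9. Among the 1311 shared genes, the difference from PC9 was larger in PC9-BrM4 for 853. The median absolute log2 difference was 0.68 in PC9-BrM4 and 0.52 in PC9-AMG. A direct comparison of PC9-AMG with PC9-BrM4, which uses no PC9 library, called 2701 of all tested genes (18.5%) and 428 of the shared genes (32.6%). Of these 428, PC9-BrM4 was farther from PC9 in 349 and PC9-AMG in 79. Of the 30 genes with the largest shared differences, 15 were called different between the derivatives. For the other 883 shared genes no difference between the derivatives was called, which does not show that they moved by the same amount. The count of 428 was between 192 and 285 when PC9 library 1 or 2, PC9-BrM4 library 1 or PC9-AMG library 2 was left out.

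**Figure D2:**
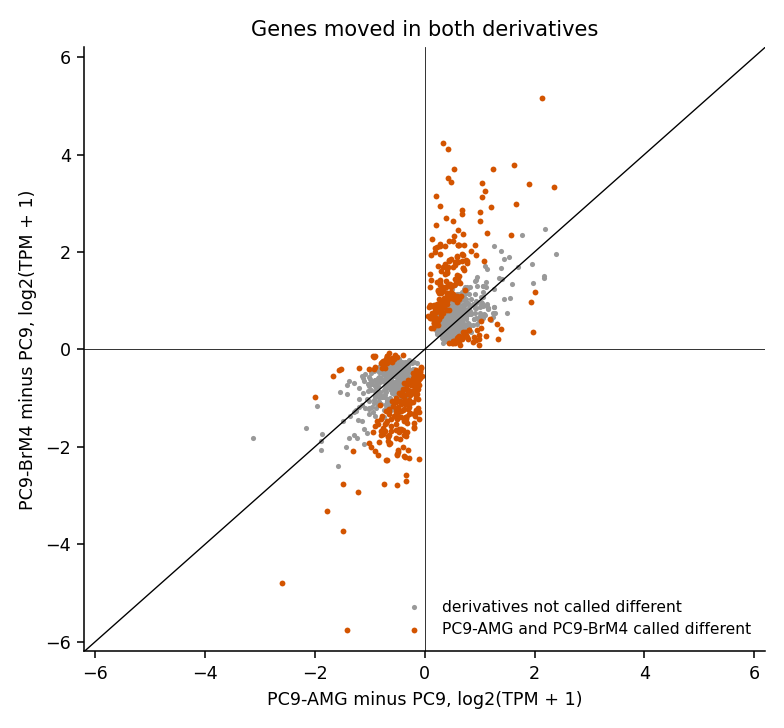
Difference from PC9 in PC9-AMG (x axis) and PC9-BrM4 (y axis), both as log2(TPM + 1), for the 1311 shared genes; each point is 1 gene and the diagonal marks equal differences. Both axes use the same 2 PC9 libraries and the rule fixes the 2 quadrants, so the shape is a description; the 428 coloured genes were called different between the derivatives, 349 of them farther from PC9 in PC9-BrM4.

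When the 4 derivative libraries were given a single mean, the gap between the lines counted as spread. Limma then gave 2007 genes an unadjusted p under 0.05, with no one-sided condition set. By the rule used above, with an adjusted p and all 4 values on one side, 20 genes were counted, 12 higher and 8 lower. The higher ones were AREG, BCYRN1, C6orf223, FAM25A, GARS, HBEGF, ITGA9-AS1, MYH15, NUPR1, OLR1, SLC5A6 and TNNT3. The lower ones were C10orf10, DHRS3, ELF3, PRSS22, PSCA, SOX4, TGFBI and TMPRSS4. PSCA, a surface antigen gene of prostate and other epithelia, was at 561 and 530 TPM in PC9, 250 and 275 TPM in PC9-BrM4 and 276 and 295 TPM in PC9-AMG. SOX4, a transcription factor gene of progenitor and tumour cells, was at 52.4 and 52.5 TPM in PC9 and between 24.7 and 29.9 TPM in the derivatives. TMPRSS4, a membrane serine protease gene, was at 34.5 and 33.6 TPM in PC9 and between 16.6 and 18.2 TPM in the derivatives. In PSCA, SOX4 and TMPRSS4 the derivative libraries lay close together, which is what this fit selects, although NUPR1, another of the 20, was called different between the derivatives. BCYRN1 is a short repeat-derived RNA and ITGA9-AS1 an antisense RNA whose assignment by strand is not stated, so both values are uncertain.

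Before the gene groups, the library-wide signs that could accompany them are given. Of 54 ribosomal protein genes, used as a sign of RNA composition, 0 rose and 1 fell, the median log2 difference being -0.03. Their summed TPM was 107659 and 107996 in the PC9 libraries, 89576 and 100098 in PC9-BrM4 and 115839 and 123682 in PC9-AMG, so the derivatives lay on opposite sides of the parent. Of 16 tested immediate early genes, a sign of handling, 2 rose and 2 fell, and none was counted without either PC9 library. Of the epithelial markers EPCAM was between 634 and 856 TPM and KRT8 between 2798 and 3346 TPM in the 6 libraries, while the lung lineage factor gene NKX2-1 reached 0.283 TPM at most. Of the glial and immune markers, GFAP, S100B, AIF1, CX3CR1, P2RY12 and TMEM119 were listed at 0 in all 6 libraries, PTPRC reached 0.133 TPM at most and AQP4 0.181 TPM. Of 6 tested astrocyte markers 2 rose, SLC1A3 and SOX9, and 1 fell, GLUL. SOX9 and GLUL are also expressed by epithelial cells, and GLUL was between 31.7 and 56 TPM in the 6 libraries. Of 4 tested microglia markers 1 rose, ITGAM, which was at 3.4 and 3.36 TPM in PC9 and between 6.19 and 8.54 TPM in the derivatives. Without either PC9 library 0 astrocyte and 0 microglia markers were counted. The summed level of the astrocyte list was 368 to 371 TPM in PC9, 383 to 385 in PC9-BrM4 and 364 to 392 in PC9-AMG, and that of the microglia list 342 to 350, 294 to 315 and 338 to 357 TPM. In bulk RNA, fewer cells of a type and less RNA per cell cannot be told apart.

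**Figure D3:**
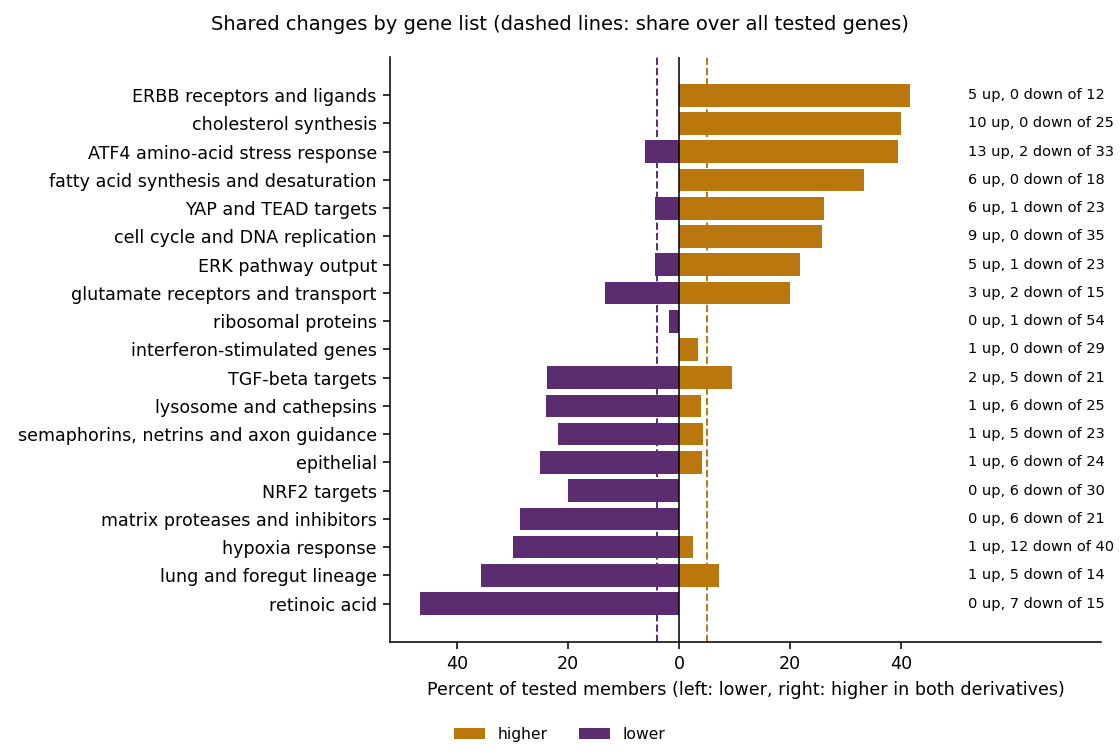
Share of the tested members of selected gene lists that rose (right) or fell (left) in both derivatives, in percent; counts stand at the right and the dashed lines mark the 5.07% and 3.93% found over all tested genes. Among the lists drawn, the ERBB, cholesterol and ATF4 lists extend farthest to the right and the retinoic acid, lung lineage and hypoxia lists farthest to the left, while 54 ribosomal protein genes stay near 0.

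The list with the most rises was that of the amino-acid stress response. When amino acids run short or unfolded proteins accumulate, the kinases that phosphorylate eIF2-alpha raise the translation of the transcription factor ATF4. ATF4 then induces genes for amino-acid synthesis, import and tRNA charging, with feedback regulators among them. Of 33 tested genes of this list 13 rose and 2 fell, and all 4 derivative values lay above PC9 for 20. The list's median log2 difference was 0.34 against 0.014 over all genes. Over all tested genes 5.07% rose and 3.93% fell. All 4 derivative values lay above both PC9 values for 15.3% and below both for 11.8%. These shares are the background for the lists below as well. Among the regulators, NUPR1 was described above and TRIB3, a pseudokinase that feeds back on ATF4, was at 43.0 and 41.1 TPM in PC9, 65.4 and 68.7 TPM in PC9-BrM4 and 68.2 and 65.2 TPM in PC9-AMG (0.66 ± 0.09, adjusted p = 0.00195). SESN2, which senses leucine and restrains mTORC1, rose from 8.06 and 7.67 TPM to 13.3 and 13.6 TPM and to 19.4 and 16.6 TPM (0.90 ± 0.13, adjusted p = 0.00224). The derivatives differed little from each other in TRIB3, and in SESN2 the PC9-AMG libraries were the higher ones.

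Among the enzymes, CHAC1, which cleaves glutathione, lies on chromosome 15 (40953438 to 40956519). CHAC1 was at 1.7 and 3.39 TPM in PC9, 7.38 and 9.94 TPM in PC9-BrM4 and 15.9 and 13.4 TPM in PC9-AMG (1.83 ± 0.21, adjusted p = 0.000876). CTH, which makes cysteine from cystathionine, was at 5.09 and 4.03 TPM in PC9, 25.6 and 21.4 TPM in PC9-BrM4 and 8.17 and 10.7 TPM in PC9-AMG (1.52 ± 0.16, adjusted p = 0.000528). PSAT1, of the serine synthesis pathway, rose from 61.6 and 64.0 TPM to 129 and 119 TPM and to 90.8 and 99.6 TPM (0.78 ± 0.09, adjusted p = 0.000701). CTH and PSAT1 were thus highest in PC9-BrM4 and CHAC1 in PC9-AMG. GARS, the glycyl-tRNA synthetase gene, was at 114 and 110 TPM in PC9 and between 181 and 203 TPM in the derivatives (0.74 ± 0.08, adjusted p = 0.000545). ASNS, the asparagine synthetase gene and a standard reporter of this pathway, was at 64.5 and 71.2 TPM in PC9 and between 97.2 and 116 TPM in the derivatives (0.64 ± 0.10, adjusted p = 0.00318). AARS, the alanyl-tRNA synthetase gene, was at 81.1 and 84.3 TPM in PC9 and between 102 and 131 TPM in the derivatives (0.51 ± 0.09, adjusted p = 0.00702). The 2 members that fell were CEBPB and DDIT4. DDIT4, an mTORC1 inhibitor also induced by low oxygen, was at 607 and 611 TPM in PC9, 383 and 373 TPM in PC9-BrM4 and 452 and 430 TPM in PC9-AMG (-0.58 ± 0.06, adjusted p = 0.000729). Without PC9 library 1 the list had 7 higher and 1 lower member and ASNS (adjusted p = 0.0576) and AARS (0.106) were no longer called, and without PC9 library 2 it had 9 higher and 1 lower and AARS was at 0.0744. CEBPB (adjusted p = 0.0471) stayed counted only without PC9-BrM4 library 2, the others giving 0.0644 to 0.45, and was at 0.065 with no filter on low values and 0.141 with moderation without a trend.

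The promoters of these members were searched for TGATGNAA or its reverse complement TTNCATCA, the core of the element that ATF4 and C/EBP proteins bind together. Of the 13 members that rose, 12 had a RefSeq promoter window of 250 bases before to 50 bases after the start, and 4 of these held the motif, in CHAC1, ASNS, AARS and SLC3A2. Over all 27305 RefSeq promoters 1003 held it, 3.67%. A match is a description of letters and not a measured binding site. Members that neither rose nor fell were not searched, so whether the motif goes with the rise was not tested. The stretches around 3 of the matches are shown as examples, 5′ to 3′ on the strand of the gene, with the match in capitals. They come from RefSeq in build GRCh38.p14. They lie at chr15:40953221-40953315 on the plus strand, chr7:97872423-97872522 on the minus strand and chr16:70289640-70289739 on the minus strand, and the matches begin 209, 68 and 187 bases before the start site.
CHAC1: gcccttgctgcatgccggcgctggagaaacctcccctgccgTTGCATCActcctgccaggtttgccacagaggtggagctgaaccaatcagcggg
ASNS: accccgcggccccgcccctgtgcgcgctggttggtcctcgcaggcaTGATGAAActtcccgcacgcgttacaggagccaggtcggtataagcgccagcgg
AARS: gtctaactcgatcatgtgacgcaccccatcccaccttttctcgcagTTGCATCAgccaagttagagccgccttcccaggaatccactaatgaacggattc

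Genes of cholesterol synthesis rose where they were counted. The SREBP2 transcription factor drives these genes when membrane sterols are low, from acetyl-CoA thiolase to the last reductases. Of 25 tested members 10 rose and 0 fell, and all 4 derivative values lay above PC9 for 13, with a median log2 difference of 0.38. The shares over all tested genes were 5.07% for rises and 15.3% for all 4 values above PC9. At the start of the pathway, ACAT2, the cytosolic thiolase gene, was at 8.76 and 9.22 TPM in PC9, 26.0 and 25.7 TPM in PC9-BrM4 and 11.3 and 10.8 TPM in PC9-AMG (0.85 ± 0.12, adjusted p = 0.00219). IDI1, the isopentenyl isomerase gene, was at 20.9 and 20.3 TPM in PC9, 50.2 and 48.1 TPM in PC9-BrM4 and 24.6 and 27.8 TPM in PC9-AMG (0.77 ± 0.10, adjusted p = 0.00195). SQLE, the squalene epoxidase gene at the first oxygen-requiring step, was at 21.3 and 20.3 TPM in PC9, 50.4 and 41.8 TPM in PC9-BrM4 and 31.8 and 35.2 TPM in PC9-AMG (0.88 ± 0.11, adjusted p = 0.00155). Every PC9-AMG library lay between the parent and PC9-BrM4 in these 3 genes. At the end of the pathway, DHCR7 rose from 43.6 and 44.8 TPM to 96.7 and 84.1 TPM and to 62.6 and 56 TPM (0.71 ± 0.10, adjusted p = 0.00219). In PC9-AMG alone ACAT2 (0.27, adjusted p = 0.242), IDI1 (0.33, adjusted p = 0.123) and DHCR7 (0.41, adjusted p = 0.0555) were not called. SQLE was called there (0.66, adjusted p = 0.0195). Of the 10 members, 8 were called different between the derivatives. The count fell to 4 without either PC9 library, the 4 being the genes given here. The motif TCACNCCAC, or GTGGNGTGA on the other strand, was in 0 of the 7 member promoters in RefSeq and in 1.15% of all promoters.

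In fatty acid synthesis and desaturation 6 of 18 tested members rose and 0 fell (median 0.24), but none was counted in every fit with 1 library left out. The count was 0 without PC9 library 2, 2 without PC9 library 1 or PC9-BrM4 library 1, and 3 without PC9-BrM4 library 2 or PC9-AMG library 1. It was also 2 with no filter on low values and with moderation without a trend, and 0 with a single derivative mean.

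Ligands of the EGF receptor family rose. They are made as membrane precursors that are shed to activate EGFR and its partners on the same or neighbouring cells. Of 12 tested genes 5 rose and 0 fell, and the 5 are ligands. AREG, encoding amphiregulin on chromosome 4 (74445098 to 74455009), was at 19.5 and 20.1 TPM in PC9, 39.2 and 40.4 TPM in PC9-BrM4 and 36.8 and 46.3 TPM in PC9-AMG (1.0 ± 0.12, adjusted p = 0.000844). HBEGF, the heparin-binding ligand on chromosome 5 (140332843 to 140346603), was at 27.2 and 24.1 TPM in PC9, 45.3 and 48.4 TPM in PC9-BrM4 and 46 and 45.6 TPM in PC9-AMG (0.83 ± 0.10, adjusted p = 0.00109). In both genes the libraries of the 2 derivatives overlapped each other, while their separation from PC9 is part of the rule. The other 3 ligands were nearer the threshold. EPGN was at 1.55 and 1.74 TPM in PC9 and between 3.25 and 5.08 TPM in the derivatives (0.97 ± 0.20, adjusted p = 0.014). EREG was at 0.752 and 1.13 TPM in PC9, 4.97 and 4.37 TPM in PC9-BrM4 and 1.63 and 1.35 TPM in PC9-AMG (0.96 ± 0.19, adjusted p = 0.0137). TGFA was at 36 and 38.6 TPM in PC9, 74.4 and 58.2 TPM in PC9-BrM4 and 45.2 and 45.3 TPM in PC9-AMG (0.54 ± 0.11, adjusted p = 0.0161). Without PC9 library 1 or 2 only AREG and HBEGF of the list were counted. EPGN was then at 0.105 and 0.0755, EREG at 0.153 and 0.0513 and TGFA at 0.182 and 0.102, EPGN was at 0.0546 without PC9-BrM4 library 2, and TGFA was at 0.0502 without PC9-AMG library 2. With no filter on low values EPGN was at 0.0557 and TGFA at 0.0584. In PC9-AMG alone EREG (0.36, adjusted p = 0.343) and TGFA (0.27, adjusted p = 0.223) were not called.

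Of the receptors, EGFR, ERBB2 and ERBB3 did not pass the test. EGFR was at 204 and 204 TPM in PC9, 359 and 215 TPM in PC9-BrM4 and 188 and 155 TPM in PC9-AMG, a mean log2 difference of 0.10 ± 0.17 (adjusted p = 0.77). The PC9-BrM4 libraries lay above and the PC9-AMG libraries below the parent. ERBB2 was at 52.4 and 55.3 TPM in PC9, 51.1 and 44.4 TPM in PC9-BrM4 and 43.3 and 35 TPM in PC9-AMG (-0.32 ± 0.11, adjusted p = 0.111). ERBB3 was at 77.8 and 77.8 TPM in PC9 and between 58.3 and 69.2 TPM in the derivatives (-0.31 ± 0.10, adjusted p = 0.0727). It was called lower with median centring (adjusted p = 0.0429), quantile normalization (0.0358), a filter at 5 TPM (0.0498) or FPKM (0.0467), and without PC9-BrM4 library 1 (0.0422).

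**Figure D4:**
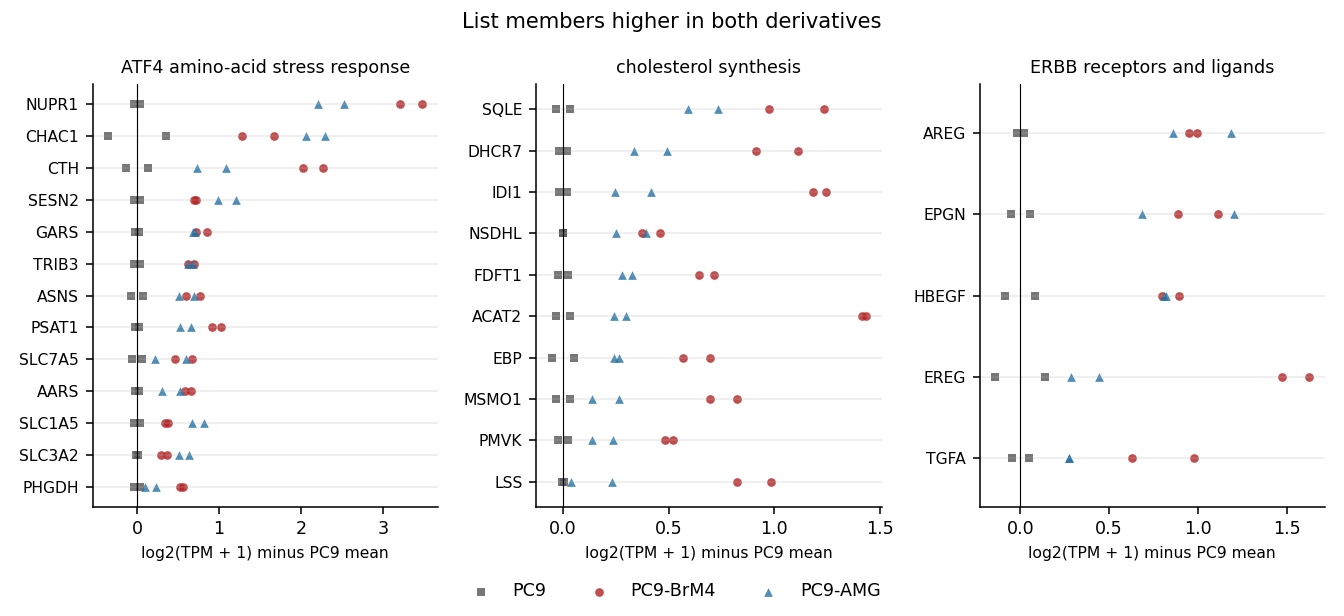
Members of 3 lists that rose, as log2(TPM + 1) minus the mean of both PC9 libraries; squares are PC9, circles PC9-BrM4 and triangles PC9-AMG libraries, 2 of each. In the cholesterol list the PC9-BrM4 libraries of ACAT2, IDI1, SQLE and DHCR7 lie well beyond those of PC9-AMG, while AREG and HBEGF rose by about the same amount in both.

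Cell cycle genes that rose were mostly those of the entry into DNA synthesis, which E2F factors induce at the end of the G1 phase. Of 35 tested genes 9 rose and 0 fell, with a median log2 difference of 0.19, and all 4 derivative values lay above PC9 for 17. The 9 were CCNE1, CDC25A, MYBL2, E2F1, MCM2, MCM3, MCM6, FEN1 and TYMS. Over all tested genes 5.07% rose, and all 4 derivative values lay above PC9 for 15.3%. MCM6, a subunit of the replicative helicase, was at 18.1 and 17.9 TPM in PC9, 36.3 and 31.5 TPM in PC9-BrM4 and 24.2 and 22.3 TPM in PC9-AMG (0.61 ± 0.11, adjusted p = 0.00825). FEN1, the flap endonuclease of lagging-strand synthesis, was at 18.7 and 21.7 TPM in PC9 and between 30.3 and 34.7 TPM in the derivatives (0.67 ± 0.11, adjusted p = 0.00624). TYMS, the thymidylate synthase gene, was at 58.4 and 52 TPM in PC9 and between 71.8 and 93.3 TPM in the derivatives (0.53 ± 0.10, adjusted p = 0.00863). These rises were small. E2F1 was at 11.7 and 11 TPM in PC9 and between 14.3 and 19.3 TPM in the derivatives (0.55 ± 0.14, adjusted p = 0.0312). The phosphatase gene CDC25A was at 1.93 and 1.62 TPM in PC9 and between 2.96 and 4.24 TPM in the derivatives (0.70 ± 0.19, adjusted p = 0.0432). Of the genes given here, only FEN1 was called in PC9-AMG by itself (0.69, adjusted p = 0.0169). MCM6 (0.35, adjusted p = 0.125), TYMS (0.42, adjusted p = 0.0536), E2F1 (0.48, adjusted p = 0.0937) and CDC25A (0.69, adjusted p = 0.0824) were not. The group depended on single libraries, with 1 member left without either PC9 library, 4 without PC9-BrM4 library 1 and 5 without PC9-AMG library 1. FEN1 was at 0.12 without PC9 library 1, TYMS at 0.162 without PC9 library 2, and MCM6 at 0.0947 and 0.112 without PC9 library 1 or 2. E2F1 stayed counted only without PC9-AMG library 2 and CDC25A only without PC9-BrM4 library 2, the others giving 0.0552 to 0.265 and 0.0697 to 0.306. With no filter on low values E2F1 was at 0.0862 and CDC25A at 0.0859.

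The E2F motif was searched as TTTNGCGC or GCGCNAAA in the same promoter windows. It was in 5 of the 9 member promoters, those of CDC25A, E2F1, MCM6, MCM3 and MCM2, and in 500 of all promoters, 1.83%. Members of the list that did not rise were not searched, so whether the motif goes with the rise was not tested. The stretches before the start site of 3 of them are shown because both directions of the motif can overlap in 1 site, as in MCM6, whose capitals hold both and whose upstream window has 4 matches. They lie at chr3:48188418-48188507, chr20:33686386-33686451 and chr2:135876542-135876641, all on the minus strand of GRCh38.p14, and the matches begin 44, 20 and 152 bases before the start.
CDC25A: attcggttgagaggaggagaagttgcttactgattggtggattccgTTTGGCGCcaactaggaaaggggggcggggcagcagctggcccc
E2F1: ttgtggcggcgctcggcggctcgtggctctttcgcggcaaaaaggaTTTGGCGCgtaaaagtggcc
MCM6: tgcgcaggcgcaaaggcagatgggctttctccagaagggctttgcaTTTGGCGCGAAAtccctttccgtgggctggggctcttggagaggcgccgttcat

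Glutamate handling moved member by member. The SLC1 family carries glutamate and neutral amino acids across the plasma membrane, and GLUL makes glutamine from glutamate. Of 33 genes on the list 15 were tested and 10 were listed at 0 in all 6 libraries; 3 rose and 2 fell. SLC1A6 was described above and remained in every fit with 1 library left out. SLC1A3, the glial glutamate transporter gene, was listed at 0 in both PC9 libraries and was at 3.44 and 2.12 TPM in PC9-BrM4 and 0.652 and 0.361 TPM in PC9-AMG (adjusted p = 0.0113, and 0.0547 and 0.0595 without PC9 library 1 or 2). SLC1A5, the main glutamine importer, was at 89.5 and 94.6 TPM in PC9, 120 and 117 TPM in PC9-BrM4 and 163 and 147 TPM in PC9-AMG (0.55 ± 0.08, adjusted p = 0.00325, and 0.0703 without PC9 library 1). In PC9-AMG alone SLC1A3 was not called (0.58, adjusted p = 0.223). SLC1A1 and GLUL went the other way, though in PC9-BrM4 alone neither was called (-0.55, adjusted p = 0.0731, and -0.27, adjusted p = 0.124). SLC1A1, the widely expressed glutamate transporter gene, was at 8.04 and 8.17 TPM in PC9, 5.63 and 4.83 TPM in PC9-BrM4 and 2.73 and 3.58 TPM in PC9-AMG (-0.84 ± 0.16, adjusted p = 0.01, and 0.0954 and 0.111 without PC9 library 1 or 2). GLUL was at 56 and 54.1 TPM in PC9, 47 and 44.2 TPM in PC9-BrM4 and 31.7 and 33 TPM in PC9-AMG (-0.51 ± 0.09, adjusted p = 0.00851, and 0.157 and 0.116 without PC9 library 1 or 2).

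Targets of the hypoxia response fell. HIF transcription factors, stabilised at low oxygen, induce genes of glycolysis, matrix cross-linking and angiogenesis. Of 40 tested members 12 fell and 1 rose, all 4 derivative values lay below PC9 for 17, and the median log2 difference was -0.23. Over all tested genes 3.93% fell, and all 4 derivative values lay below PC9 for 11.8%. PFKFB3, which makes the allosteric activator of glycolysis, was at 72.2 and 75.4 TPM in PC9, 48.5 and 41.4 TPM in PC9-BrM4 and 37.5 and 33.7 TPM in PC9-AMG (-0.87 ± 0.10, adjusted p = 0.00102). LOX and DDIT4, both described above, fell with it. The other members that fell were CA12, ADM, KDM3A, P4HA2, LOXL2, ENO2, MXI1, ERO1A and BHLHE40. SLC2A3, the high-affinity glucose transporter gene GLUT3, was the exception. SLC2A3 was at 82.8 and 81.6 TPM in PC9, 280 and 246 TPM in PC9-BrM4 and 134 and 135 TPM in PC9-AMG (1.18 ± 0.08, adjusted p = 4.95e-05). Of 18 tested glycolysis genes 1 fell, ENO2, and 0 rose, and ENO2 was not counted without either PC9 or either PC9-BrM4 library. Without either PC9 library 4 hypoxia members were counted lower, and 7 without PC9-BrM4 library 2. The lower members numbered 6 with no filter on low values, 7 with moderation without a trend and 0 with a single derivative mean. Summed over the list, TPM was 22289 and 22503 in the PC9 libraries and 23499 and 23994 in PC9-BrM4, above the parent, against 19491 and 20238 in PC9-AMG. The short motif ACGTG or CACGT was in 5 of the 11 promoters of lower members in RefSeq and in 21.6% of all promoters.

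Genes of the retinoic acid pathway fell at several of its steps. Retinol is taken up through STRA6, oxidised by dehydrogenases, carried by CRABP2 to nuclear receptors and cleared by CYP26 enzymes, several of which are themselves induced by retinoic acid. Of 15 tested genes 7 fell and 0 rose, with a median log2 difference of -0.29. They were STRA6, ALDH1A1, DHRS3, CRABP2, the receptor genes RARA and RARG, and CYP26A1. DHRS3, which reduces retinaldehyde back to retinol, was at 163 and 161 TPM in PC9, 77.1 and 91 TPM in PC9-BrM4 and 95.1 and 87.5 TPM in PC9-AMG (-0.88 ± 0.09, adjusted p = 0.000549). STRA6 was at 79.8 and 87.4 TPM in PC9 and between 44.3 and 57.6 TPM in the derivatives (-0.65 ± 0.11, adjusted p = 0.00702). ALDH1A1 was at 2.2 and 2.39 TPM in PC9 and 1.22 and 0.714 TPM in PC9-AMG and was listed at 0 in PC9-BrM4 (adjusted p = 0.00786). Of these 3, DHRS3 was the most abundant and the one counted whichever library was left out. CYP26A1 was at 5.79 and 5.45 TPM in PC9, 2.3 and 3.92 TPM in PC9-BrM4 and 1.94 and 2.63 TPM in PC9-AMG (-0.87 ± 0.21, adjusted p = 0.0274). ALDH1A1 was not called in PC9-AMG alone (-0.76, adjusted p = 0.103), nor CYP26A1 in PC9-BrM4 alone (-0.72, adjusted p = 0.0688). Without PC9 library 2 DHRS3 alone was counted, STRA6 being at 0.101 and ALDH1A1 at 0.0655, and without PC9 library 1 the count was 3. CYP26A1 was at 0.183 and 0.136 without PC9 library 1 or 2 and at 0.0815 and 0.0549 without PC9-AMG library 1 or 2, and at 0.088 with no filter on low values. Summed over the list, TPM was higher in PC9-BrM4 (1770 and 1894) and lower in PC9-AMG (1198 and 1295) than in PC9 (1615 and 1628).

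Among NRF2 targets the falls were in 4 aldo-keto reductase genes, UGDH and PGD. NRF2 is the transcription factor of the oxidative stress response. Of 30 tested targets 6 fell and 0 rose, with a median of -0.09. AKR1B10 was at 393 and 369 TPM in PC9, 93.3 and 86.7 TPM in PC9-BrM4 and 262 and 283 TPM in PC9-AMG (-1.28 ± 0.08, adjusted p = 2.38e-05). AKR1C2 was at 734 and 720 TPM in PC9, 519 and 495 TPM in PC9-BrM4 and 452 and 415 TPM in PC9-AMG (-0.63 ± 0.07, adjusted p = 0.000559). The AKR1C paralogs are very similar in sequence, so the split of reads among AKR1C1, AKR1C2 and AKR1C3, which all fell, is uncertain. UGDH, which makes UDP-glucuronate, was at 39.8 and 36.8 TPM in PC9 and 17.6, 17.8, 26.8 and 28.7 TPM in the derivatives (-0.76 ± 0.10, adjusted p = 0.00205). PGD, of the pentose phosphate pathway, was at 425 and 436 TPM in PC9, 245 and 240 TPM in PC9-BrM4 and 357 and 325 TPM in PC9-AMG (-0.58 ± 0.07, adjusted p = 0.0012). AKR1B10, UGDH and PGD fell farther in PC9-BrM4, and these 4 genes were counted whichever library was left out.

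In the lysosome list the 6 genes that fell of 25 tested were cathepsins, the proteases of the organelle, and 1 gene rose, CPVL, a carboxypeptidase related to cathepsin A. CTSL was at 274 and 271 TPM in PC9, 112 and 123 TPM in PC9-BrM4 and 248 and 254 TPM in PC9-AMG (-0.66 ± 0.07, adjusted p = 0.000748). CTSD was at 1475 and 1495 TPM in PC9, 1090 and 1115 TPM in PC9-BrM4 and 1138 and 944 TPM in PC9-AMG (-0.47 ± 0.08, adjusted p = 0.00507). CTSA was at 276 and 285 TPM in PC9 and between 169 and 220 TPM in the derivatives (-0.48 ± 0.08, adjusted p = 0.00706). CTSL was not called in PC9-AMG alone (-0.12, adjusted p = 0.433), whereas CTSD and CTSA were called in each derivative alone. CTSD differed from PC9 by -0.43 in PC9-BrM4 and -0.52 in PC9-AMG, and CTSA by -0.35 and -0.61. CTSH was at 150 and 156 TPM in PC9 and between 117 and 122 TPM in the derivatives (-0.36 ± 0.08, adjusted p = 0.0172). CPVL was at 0 and 0.547 TPM in PC9, 44.1 and 42.6 TPM in PC9-BrM4 and 3.48 and 5.61 TPM in PC9-AMG (3.64 ± 0.22, adjusted p = 2.28e-05). Without PC9 library 1 or 2 the lower members numbered 2 and 1, and with median centring 3. CTSD was at 0.0628 without PC9 library 2, CTSA at 0.0716 and 0.109 and CTSH at 0.18 and 0.283 without PC9 library 1 or 2. With moderation without a trend CTSD (0.0599), CTSA (0.054) and CTSH (0.0765) were not called.

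**Figure D5:**
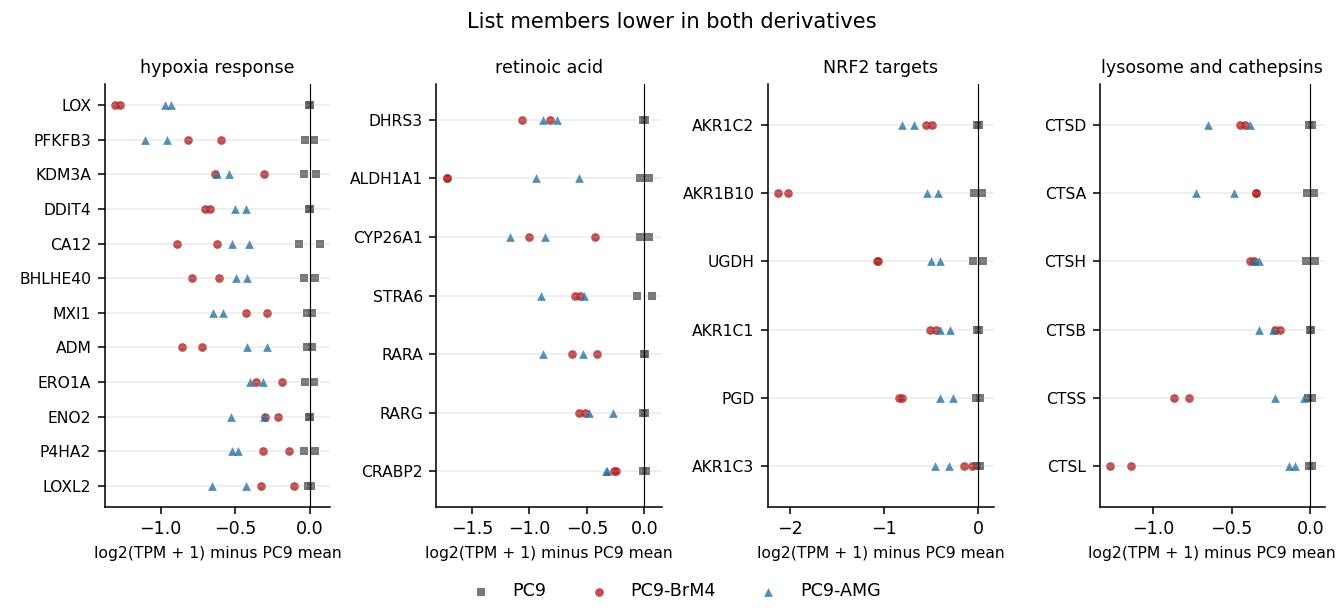
Members of 4 lists that fell, as log2(TPM + 1) minus the mean of both PC9 libraries; squares are PC9, circles PC9-BrM4 and triangles PC9-AMG libraries, 2 of each. DHRS3 fell by like amounts in both derivatives, and PFKFB3 differed from PC9 by -0.71 in PC9-BrM4 and -1.03 in PC9-AMG. AKR1B10 and CTSL lie much lower in PC9-BrM4 than in PC9-AMG.

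Some epithelial lineage factors fell. ELF3 is an ETS factor of differentiated epithelia, FOXA1 opens chromatin at lung and gut enhancers, and GATA6 acts in foregut development. Of 14 tested genes of lung and foregut lineage 5 fell and 1 rose, with a median of -0.39. ELF3, on chromosome 1 (202010562 to 202017187), was at 317 and 314 TPM in PC9, 144 and 149 TPM in PC9-BrM4 and 174 and 159 TPM in PC9-AMG (-1.01 ± 0.07, adjusted p = 6.47e-05). FOXA1 was at 14.2 and 14.5 TPM in PC9, 0.809 and 1.83 TPM in PC9-BrM4 and 7.63 and 8.72 TPM in PC9-AMG (-1.76 ± 0.19, adjusted p = 0.000663). GATA6 was at 18.2 and 19.4 TPM in PC9, 7.9 and 7.11 TPM in PC9-BrM4 and 14 and 14.5 TPM in PC9-AMG (-0.80 ± 0.12, adjusted p = 0.00348, and 0.0777 without PC9 library 2). ELF3 differed from PC9 by -1.1 in PC9-BrM4 and -0.92 in PC9-AMG, while FOXA1 and GATA6 fell mostly in PC9-BrM4. In PC9-AMG alone FOXA1 (-0.75, adjusted p = 0.0701) and GATA6 (-0.38, adjusted p = 0.131) were not called. MUC1 and CAV1 also fell and SOX9 rose, the last not counted in any of the 6 fits that leave out 1 library (adjusted p from 0.0609 to 0.461). Without either PC9 library 3 members were counted lower and 0 higher. Of 24 epithelial genes 6 fell and 1 rose, with 3 and 4 falls left without PC9 library 1 or 2, and their summed TPM was 21199 and 21396 in the PC9 libraries, 16926 and 17417 in PC9-BrM4 and 18780 and 19356 in PC9-AMG.

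Of 18 tested mesenchymal genes and their regulators 3 rose and 4 fell, with 1 of the falls left without either PC9 library. VIM and CDH1, a mesenchymal and an epithelial marker gene, were not shared. VIM was at 163 and 162 TPM in PC9, 269 and 257 TPM in PC9-BrM4 and 90.1 and 88.7 TPM in PC9-AMG (mean log2 difference -0.08 ± 0.07, adjusted p = 0.53). CDH1 was at 107 and 109 TPM in PC9, 159 and 124 TPM in PC9-BrM4 and 84.5 and 75.6 TPM in PC9-AMG (-0.03 ± 0.11, adjusted p = 0.907). For both genes the derivatives lay on opposite sides of the parent. SNAI2, given above among the large falls, was at 9.93 and 7.71 TPM in PC9, 2.28 and 2.76 TPM in PC9-BrM4 and 3.64 and 3.24 TPM in PC9-AMG (-1.31 ± 0.17, adjusted p = 0.00169).

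Matrix proteases and their inhibitors fell where they changed. Of 21 tested 6 fell and 0 rose, and 3 of the 6 were left without either PC9 library. MMP7, matrilysin, was at 6.18 and 6.62 TPM in PC9, 1.05 and 1.33 TPM in PC9-BrM4 and 3.58 and 3.77 TPM in PC9-AMG (-1.21 ± 0.17, adjusted p = 0.0022). It was not called in PC9-AMG alone (-0.66, adjusted p = 0.0661). SERPINE2, an inhibitor of thrombin and urokinase, was at 504 and 498 TPM in PC9 and between 325 and 354 TPM in the derivatives (-0.55 ± 0.07, adjusted p = 0.00149). Both were counted whichever library was left out.

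Among genes of the TGF-beta and BMP pathways 5 of 21 fell and 2 rose. ID1, a direct BMP target that blocks differentiation factors, was at 78.5 and 74.1 TPM in PC9, 29.9 and 35.2 TPM in PC9-BrM4 and 40.7 and 40.6 TPM in PC9-AMG (-1.05 ± 0.10, adjusted p = 0.000349). TGFBI, a matrix protein gene induced by TGF-beta, was at 485 and 496 TPM in PC9, 301 and 277 TPM in PC9-BrM4 and 272 and 268 TPM in PC9-AMG (-0.81 ± 0.07, adjusted p = 0.000153). The other falls were in the ligand genes TGFB1, TGFB2 and BMP4. The rises were in the ligand gene BMP7 and in CTGF. BMP7 was at 0.402 and 0.37 TPM in PC9, 10.8 and 9.17 TPM in PC9-BrM4 and 3.68 and 3.12 TPM in PC9-AMG (2.32 ± 0.17, adjusted p = 6.56e-05). The lower members numbered 2 and 3 without PC9 library 1 or 2, and ID1, TGFBI and BMP7 were counted whichever library was left out.

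Of 23 tested semaphorins, netrins and other axon guidance genes 5 fell and 1 rose, with a median of -0.26. NTN4, a netrin of basement membranes, was at 49.1 and 47 TPM in PC9, 29.1 and 22.1 TPM in PC9-BrM4 and 19.1 and 24.1 TPM in PC9-AMG (-1.01 ± 0.14, adjusted p = 0.00219). SEMA3B, a secreted semaphorin gene from a region often lost in lung cancer, was at 133 and 146 TPM in PC9, 41.4 and 44 TPM in PC9-BrM4 and 102 and 69.4 TPM in PC9-AMG (-1.20 ± 0.14, adjusted p = 0.000846). Without PC9 library 1 or 2 the list had 3 and 2 lower members.

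Mediators of brain metastasis known from other models moved both ways, 3 of 14 tested rising and 4 falling, of which 1 fall was left without either PC9 library. The rises were in HBEGF, given above, L1CAM and S100A9. The falls were in PTGS2 (-0.99, adjusted p = 0.00231), PCDH7 (-0.63, adjusted p = 0.013), PLEKHA5 (-0.54, adjusted p = 0.0115) and CTSS. L1CAM, an adhesion molecule of axons that tumour cells use to spread along vessels, was at 44.6 and 47.3 TPM in PC9, 105 and 87.2 TPM in PC9-BrM4 and 69.5 and 51.3 TPM in PC9-AMG (0.71 ± 0.13, adjusted p = 0.00911, 0.0716 without PC9 library 1, and 0.0573 with no filter on low values). In PC9-AMG alone L1CAM was not called (0.37, adjusted p = 0.161). ST6GALNAC5, a sialyltransferase gene of brain-tropic breast cancer lines, was not shared. ST6GALNAC5 was at 0.822 and 0 TPM in PC9, 6.29 and 4.72 TPM in PC9-BrM4 and 0.299 and 0.0998 TPM in PC9-AMG, so its mean difference passed the test (adjusted p = 0.0411) on PC9-BrM4 alone. SERPINI1, which encodes neuroserpin, and LEF1 were not called (-0.25, adjusted p = 0.406, and -0.35, adjusted p = 0.331).

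Of the 6 libraries, leaving out one of PC9 lowered the counts most. Without PC9 library 1 the shared genes numbered 245 higher and 186 lower, and without PC9 library 2 they numbered 205 and 162. Of the shared genes, 142 higher and 125 lower genes were counted whichever of the 6 libraries was left out.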

How the data were processed

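The 6 libraries, 2 per line, were made from TRIzol-extracted total RNA with a stranded mRNA kit, per the labels' protocols. HISAT2 2.1.0, StringTie 1.3.4d and genome build hg38 come from the submitters' processing notes, which give no annotation or strand setting. The authors deposited a table of TPM for 26475 genes over all libraries, used for the tests, and a table per library. Per the file headers, the library tables hold TPM, FPKM and Coverage, which are the authors' length-scaled transcript shares, depth-scaled fragments per kilobase and mean read coverage per base. Of the genes, 98.9% had equal TPM in both kinds of table within 0.001 TPM, and rows of the 1449 genes with more than 1 row were summed in the library tables.

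The test was limma (version 3.58.1, in R version 4.3.3), two-sided, on log2(TPM + 1) of the 14567 genes with TPM of at least 1 in 2 or more libraries. One mean per line was fitted to all 6 libraries, with empirical Bayes moderation and a variance trend (3 residual and 6.8 prior degrees of freedom). The contrast was the average of both derivative means minus the PC9 mean, and fold changes of low genes are understated on this scale. The threshold was 0.05. The fitting script was tested on simulated data. Tables and plots were made with Python 3.11.15, pandas 2.3.3 and matplotlib 3.10.9.

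Named genes are the 15 higher and 15 lower shared genes with the largest smaller difference and at least 5 TPM in PC9 or in the lower derivative, with symbols that are not clone, locus, small-RNA, antisense or read-through names. Up to 4 members per gene list and fixed genes were added, of which the text gives a selection. Members and lists were chosen with earlier results of these data known. ASNS, AARS, GARS, TRIB3, PSAT1, ACAT2, DDIT4, PGD, CTSL, TGFA, MCM6 and others outside the rule were chosen after their values were seen, as were the genes called with a single derivative mean. The 56 lists are described by counts and medians, without a set test. Of the tested genes 543 are small RNAs, which mRNA libraries measure poorly, and 42 of them are among the shared genes. The 20 alternatives covered scaling, pseudocounts of 0.1 and 0.5, filters, the source and unit of the values, moderation, the grouping, a replicate block and leaving out each library. Promoters come from RefSeq (GRCh38.p14) by symbol. For each motif only the list members that rose or fell and the set of all promoters were searched.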

Additional observations from a re-analysis of the deposited data

Results flagged for a closer look

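Of the 111 genes given with values, 55 were called different between PC9-AMG and PC9-BrM4 by limma. Over all 14567 tested genes 2701 were called (18.5%). The 111 genes were partly chosen for large differences or after their values were seen, so the count says nothing on genes at large. They do not include MYL6, SAT1, PCDH7, PLEKHA5, EPCAM or KRT8, which were also given with values. For these 55 the difference from PC9 was unequal in the 2 derivatives. Values below are PC9-AMG minus PC9-BrM4 on the log2(TPM + 1) scale, with adjusted p-values over all tested genes. PC9-BrM4 was the higher derivative for most of the genes that rose. In the transport, stress and secreted group these were NUPR1 (-0.98), FHL1 (-1.49), GGT6 (-2.18), EDN2 (-0.79), SLC1A6 (-1.72), FAM133A (-0.74), CTH (-1.24), PSAT1 (-0.38), SLC2A3 (-0.96) and SLC1A3 (-1.31), with adjusted p between 4.62e-05 and 0.0275. In lipid synthesis they were ACAT2 (-1.16), IDI1 (-0.88), DHCR7 (-0.60) and SQLE (-0.44), the last at an adjusted p of 0.0415. Among ligands, adhesion and matrix genes they were EREG (-1.19), TGFA (-0.53), BMP7 (-1.32), L1CAM (-0.67), CTGF (-0.92), S100A4 (-1.23) and CNN3 (-0.63). CPVL (-3.03, adjusted p = 7.33e-05), MCM6 (-0.52) and SOX9 (-0.37) complete this direction.

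Genes that fell were mostly lower in PC9-BrM4. The difference was 4.36 for CEACAM6 (adjusted p = 1.05e-07), 2.20 for CEACAM5, 2.23 for AOC1, 2.02 for FOXA1, 1.70 for CES1 and 1.59 for AKR1B10. It was 1.54 for PTN and 0.96 for ALDH1A1, both listed at 0 in PC9-BrM4. PELI2 (1.27), FLNC (1.13), MMP7 (1.10), CTSL (1.09), SEMA3B (0.96), COLCA2 (0.92) and GATA6 (0.85) followed. AADAC (0.77), UGDH (0.62), CYP4F3 (0.60), COL17A1 (0.58), PGD (0.49) and CEBPB (0.34) differed less. PC9-AMG was farther from PC9 in EDIL3 (-1.01), GLUL (-0.48), C3 (-0.81) and TNFAIP2 (-1.13), which fell, and in SLC1A5 (0.38) and SERPING1 (0.95), which rose.

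Of the genes given without a shared change, EGFR (-0.70, adjusted p = 0.0351), CDH1 (-0.80), VIM (-1.54) and ST6GALNAC5 (-2.43) differed between the derivatives. ERBB2, ERBB3, SERPINI1 and LEF1 were not called different.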

How the results depend on the processing

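Counts of shared genes rested on the filter, the grouping and the parental libraries. With no filter on low values 434 genes were higher, 364 lower and 282 unequal between the derivatives, against 739, 572 and 428. With a single mean for the derivatives 12 higher and 8 lower genes were counted. Leaving out each library gave 205 to 629 higher, 162 to 611 lower and 192 to 358 unequal genes, the lowest counts coming without PC9 library 2. Other scalings, pseudocounts, units and moderation kept all 3 counts within 1.5 times, with 686 higher and 648 lower under median centring and 727 and 721 under quantile normalization.

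Of the 111 genes given with values, 20 lost their call without PC9 library 1, 22 without PC9 library 2 and 84 with a single derivative mean. Among the 111, EGFR, ERBB2, ERBB3, SERPINI1, LEF1, VIM and CDH1 had no call to lose. EGFR, between -0.09 (without PC9-BrM4 library 1) and 0.28, changed sign close to 0. So did CDH1, between -0.12 and 0.06 (without PC9-BrM4 library 2, and 0.01 without PC9-AMG library 2). Fits without 1 library assume that the line's remaining library varies like the other lines.

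Same-numbered libraries did not deviate together (Pearson r 0.049, -0.12 and -0.005 over 12008 genes for the 3 pairs of lines), and the labels say nothing on pairing. With the replicate number as a block the counts were 769 higher, 626 lower and 433 unequal, and 2 of the 111 genes, CEBPB and SOX9, lost their call. Depth is unknown, and with 2 libraries per line small differences could not be resolved.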

Other observations

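Of 17 tested acute phase and complement genes 3 rose and 4 fell, and of 22 NF-kappaB targets and chemokines 3 rose and 2 fell. Over all tested genes 5.07% rose and 3.93% fell. PTGS2, the inducible cyclooxygenase gene, was at 13.8 and 12.2 TPM in PC9, 5.25 and 4.62 TPM in PC9-BrM4 and 7.53 and 7.22 TPM in PC9-AMG (mean log2 difference -0.99, adjusted p = 0.00231, limma). C3, the central complement component, was at 77.1 and 80.7 TPM in PC9, 66.8 and 54.6 TPM in PC9-BrM4 and 38.8 and 29.9 TPM in PC9-AMG (-0.78, adjusted p = 0.00472). SERPING1, which encodes the C1 inhibitor, rose from 0.619 and 1.06 TPM to 2.63 and 2.59 TPM and to 6.34 and 5.65 TPM (1.46, adjusted p = 0.00149). TNFAIP2 was at 208 and 207 TPM in PC9, 167 and 148 TPM in PC9-BrM4 and 75.7 and 67.3 TPM in PC9-AMG (-0.96, adjusted p = 0.00023). C3, SERPING1 and TNFAIP2 moved farther in PC9-AMG, unlike most shared genes.

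Of 23 tested actin and contractile genes 2 rose and 5 fell, with 1 fall left without either PC9 library, and of 27 laminin, integrin and basement membrane genes 0 rose and 3 fell. The genes that follow come from these and other lists, and over all tested genes 5.07% rose and 3.93% fell. S100A4, a calcium-binding partner of myosin, was at 514 and 489 TPM in PC9, 1793 and 2045 TPM in PC9-BrM4 and 814 and 819 TPM in PC9-AMG (1.32). CTGF, a matricellular YAP target, rose from 34.1 and 32.8 TPM to 90.2 and 82.4 TPM and to 43.5 and 47.1 TPM (0.88), and CNN3, a calponin gene, from 138 and 135 TPM to 274 and 261 TPM and to 159 and 188 TPM (0.65). FLNC, a filamin gene, fell from 83.2 and 94.9 TPM to 32 and 23.5 TPM and to 78.7 and 47.8 TPM (-1.09), and COL17A1, a hemidesmosome collagen gene, from 90.5 and 93.3 TPM to 41.5 and 36.2 TPM and to 65 and 52.2 TPM (-0.94). CYP4F3, a leukotriene-metabolising enzyme gene, was at 15.9 TPM in both PC9 libraries, 5.63 and 4.65 TPM in PC9-BrM4 and 8.77 and 7.77 TPM in PC9-AMG (-1.17). By limma, FLNC (-0.53, adjusted p = 0.163) and CNN3 (0.34, adjusted p = 0.0688) were not called in PC9-AMG alone. C3 was not called in PC9-BrM4 alone (-0.38, adjusted p = 0.108). The 10 genes given here were counted whichever library was left out, and FLNC was not called with no filter on low values (adjusted p = 0.0595).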
